A study of Mus musculus with 14 samples.

Results

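Transporters of neurotransmitters, of their amino acid precursors and of chloride were followed in mouse cortex with and without Fmr1, which encodes FMRP, a protein that binds mRNA and acts on its translation. The genes are all those of the deposited table whose symbol belongs to the solute carrier families Slc1, Slc6, Slc12, Slc17, Slc18, Slc32 or Slc38, and they number 59 of 23412. The rule uses the names alone, but the families were chosen with earlier results of these data known. Total RNA was sequenced in 8 libraries, and ribosome footprints, the short mRNA pieces that a ribosome shields from nuclease, in 6.

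Control mice had the genotype Rpl22flox/flox;CamKCre+ and knock-out (KO) mice the genotype Fmr1X-Y; Rpl22flox/flox;CamKCre+, so both groups carried the floxed Rpl22 allele and the Cre. Rpl22flox with CamKCre (CAMKIIa-Ribotag in the labels) tags ribosomes of the cells that express the Cre, mainly excitatory forebrain neurons. The protocols name no immunoprecipitation of tagged ribosomes, so the libraries are described here as those of all cells of the cortex. Age and strain are not given in the sources used here. RNA came from control mice 1, 3, 6 and 8 and KO mice 2, 4, 5 and 7, and footprints from control mice 1, 3 and 9 and KO mice 2, 4 and 10. Values for single libraries are listed below in these orders.

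These carriers form a cycle around the synapse. Vesicular carriers load glutamate, GABA, monoamines or acetylcholine into synaptic vesicles, and carriers of the plasma membrane take the transmitter back up into neurons and astrocytes. Astrocytes turn glutamate into glutamine, and the SNAT carriers of the Slc38 family move glutamine between the cells. Cation-chloride cotransporters of the Slc12 family set the chloride gradient that decides whether GABA inhibits or excites a neuron: NKCC1 (Slc12a2) brings chloride in, and KCC2 (Slc12a5) takes it out.

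Libraries held 8847547 to 11371851 counts of RNA, or 4124065 to 6033030 counts of footprints. Fmr1 followed the labels: its RNA was at 82.9 ± 8.36 CPM in control libraries against 21.7 ± 2.399 CPM in KO libraries (SD, n = 4 each), and its footprints were at 113 ± 1.99 CPM in control libraries against 7.44 ± 1.43 CPM in KO libraries (SD, n = 3 each). The RNA libraries of KO mice 2, 4 and 7 lay closer to each other (chi-square per degree of freedom 1.18 to 1.32) than to that of KO mouse 5 (5.64 to 6.02). They differed by more than the value of 1 that sampling noise gives, and were kept apart. A value above 1 does not show whether this spread is between mice or technical, so RNA p-values share this limit. Control mice 1 and 3 stood at 1.99 from each other and at 4.12 and 4.565 from control mouse 6. Runs with these close libraries summed are given below. The RNA library of control mouse 8 stood at 10.6 and 11.8 from those of control mice 1 and 3 and at 4.03 from that of control mouse 6. Without control mouse 8, 8 transporters and 1763 of 13561 genes were called in RNA, and without KO mouse 5, 8 and 1469 of 13610 (6 and 1001 with all mice). Footprint libraries of 1 genotype also lay close to each other (1.15 to 1.42), so footprint p-values measure the spread between these libraries only, which may be technical. Summing them would leave 1 library per genotype and no test. Summed levels of excitatory neuron markers were 705 to 873 CPM (counts divided by TMM-adjusted library size) in control RNA and 1032 to 1232 CPM in KO RNA, where Camk2a alone was called (higher) and the other 4 markers overlapped between genotypes. In footprints the same 5 summed to 3501 to 3604 CPM in controls and 3221 to 3315 CPM in KO mice, with Camk2a lower and Neurod6 higher. Markers of the hypothalamus, a region outside the cortex, summed to 38.9 to 73.7 CPM in control RNA and 20.1 to 24.0 CPM in KO RNA, with 4 of 5 lower. In footprints they summed to 109.9 to 118 CPM in controls and 41.5 to 48.0 CPM in KO mice, with 5 of 5 lower. Oligodendrocyte markers summed to 4665 to 5118 CPM in control RNA and 4052 to 4394 CPM in KO RNA, with 1 of 5 lower, and in footprints to 8011 to 8160 CPM against 7797 to 7850 CPM, with 3 of 5 lower. The part of these differences in the results below was not tested.

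In RNA, 40 of the 59 genes had enough counts to be tested. At an adjusted p under 0.05 (edgeR's quasi-likelihood test, adjusted over all genes), 4 were higher in KO mice (Slc32a1, Slc6a17, Slc6a11 and Slc17a7) and 2 were lower (Slc6a13 and Slc6a12), where 3.53% of all genes were higher and 3.88% lower. These 6 are 15% of those tested, beside 7.41% of all 13507 genes tested. With mice 1 to 4 alone 13 transporters were called, beside 3273 of all 13591 genes, and with mice 5 to 8 alone 1 (Slc32a1), beside 88 of 13488. With KO mice 2, 4 and 7 summed to 1 library 2 were called (Slc32a1 and Slc6a17), beside 79 of 13648 genes. With control mice 1 and 3 summed as well, 1 was called (Slc32a1), beside 36 of 13669. In each of these runs 40 or 41 transporters were tested. The count of transporters called was above its value with all mice where that of all genes was, and below it where that of all genes was below. Whether the counts moved in proportion was not tested.

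In footprints, 3 of 38 tested genes were higher in KO mice (Slc17a7, Slc6a17 and Slc1a2) and 6 were lower (among them Slc12a5, Slc38a10, Slc6a20a, Slc6a13 and Slc6a9), where 11.9% of all genes were higher and 13.6% lower. These 9 are 23.7% of those tested, beside 25.5% of all 12158 genes, so the share is near the background. The genotypes' libraries did not overlap in RNA in 8 transporters higher and 4 lower in KO mice, beside 15.1% of all genes tested (7.10% higher and 7.97% lower). In footprints they did not overlap in 5 higher and 10 lower, beside 37.3% of all genes (18.1% higher and 19.2% lower). Of the 38 genes tested in both assays, 3 were called in both (3.45% of all genes), each in the same direction: Slc17a7 and Slc6a17 up and Slc6a13 down.

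Footprints per RNA, or translational efficiency (TE), were compared between genotypes as the interaction of genotype and assay over all 14 libraries. Slc32a1, Slc38a10, Slc12a5 and Slc6a17 were lower in KO mice and no transporter was higher. These 4 are 10.5% of 38 tested, beside 7.81% of all 12145 genes (3.40% higher and 4.41% lower). With the mouse number as a replicate block, mice with 1 library add nothing to this comparison, so it rests on mice 1 to 4 alone. There 1810 of all 12145 genes were called (949 over all 14 libraries without the block). The effect of pairing thus cannot be told apart from that of leaving out the other mice. Of the transporters 9 were called there, all lower: 3 of these 4, without Slc38a10 (adjusted p = 0.0534), and others that included Slc17a7, Slc38a1, Slc38a2, Slc6a11 and Slc6a9. The median TE log2 fold change of the 38 was -0.16, with 32 of 38 below 0, against a median of -0.01 and 51.8% below 0 over all genes. The RNA median was 0.07, with 30 of 40 above 0 (all genes -0.0012), and the footprint median was -0.09, with 29 of 38 below 0 (all genes 0.0054). On plain library sizes the footprint median was -0.03 (all genes 0.06), with 23 of 38 below 0, and the TE median was -0.10 (all genes 0.05), with 30 of 38 below 0. There the share of calls over all genes that were higher in KO mice went from 46.7% to 66.3% in footprints and from 43.5% to 67.6% in TE.

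**Figure D1:**
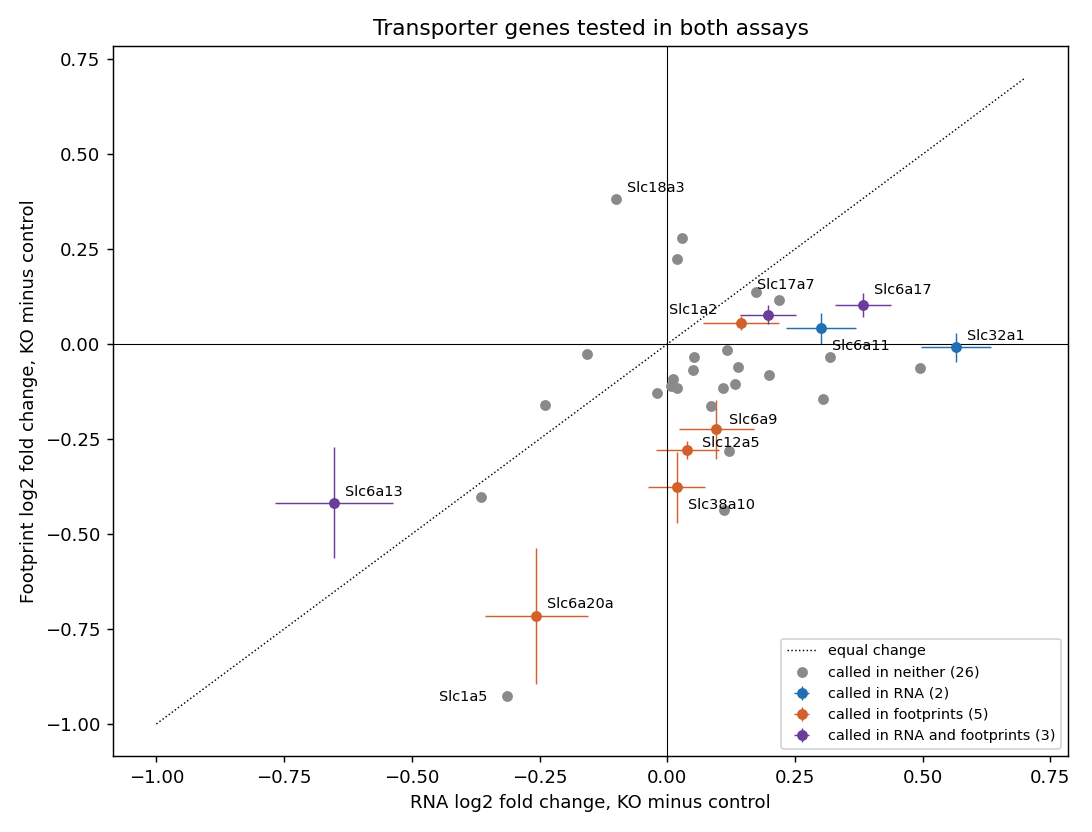
Each point is 1 of 36 transporter genes tested in both assays, with the RNA log2 fold change (KO minus control) on the x axis and the footprint log2 fold change on the y axis. Colours give the assay in which a gene was called, bars are standard errors of called genes, and the dotted line marks equal change. In 20 of the 36 the RNA value was above 0 and the footprint value below 0.

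The vesicular GABA carrier rose in RNA and not in footprints. Slc32a1 encodes VGAT, which loads GABA and glycine into vesicles of inhibitory neurons. RNA levels were 52.1, 53.6, 60.7 and 57.1 CPM in control libraries against 76.5, 83.2, 89.2 and 81.7 CPM in KO libraries, so every KO library lay above every control library. As a log2 fold change this was 0.56 ± 0.069 (SE, adjusted p = 0.000412, edgeR), a rise of 47.9%. In such bulk RNA, more cells of a type and more RNA per cell cannot be told apart. Footprint levels were 254, 240.5 and 254 CPM in control libraries against 255, 246 and 242 CPM in KO libraries, and the genotypes overlapped. The footprint log2 fold change was -0.01 ± 0.039 (SE, adjusted p = 0.903, edgeR), and that of TE was -0.58 ± 0.085 (SE, adjusted p = 0.000168, edgeR). With the exon columns the RNA log2 fold change was 0.38 and that of TE -0.38. The RNA and TE calls held in every alternative run.

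Inhibitory neuron markers were read beside Slc32a1. Of 7 in RNA, none was higher and 1 was lower (Pvalb, a calcium buffer of fast-spiking cells), and they summed to 780 to 809 CPM in control RNA and 753 to 881 CPM in KO RNA. In footprints 3 of the 7 were higher (Pvalb, Sst and Vip) and 1, the GABA-making enzyme Gad2, was lower. None of the 7 was at 0. Their part in the rise of Slc32a1 was not tested.

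Of 3 vesicular glutamate carriers, Slc17a7 alone was called, in RNA and in footprints. Slc17a7 encodes VGLUT1, the main vesicular glutamate carrier of cortical neurons. In RNA it stood at 1388, 1379, 1523 and 1494 CPM in control libraries against 1629, 1623, 1728 and 1654 CPM in KO libraries, or 0.20 ± 0.055 as a log2 fold change (SE, edgeR's adjusted p = 0.0416). In footprints it stood at 918, 895 and 919 CPM in control libraries against 953, 979.8 and 949 CPM in KO libraries, or 0.08 ± 0.024 as a log2 fold change (SE, edgeR's adjusted p = 0.0111). Every KO library was above every control library in both assays. The RNA call was lost without mouse 1, 2, 3, 4, 6 or 7 (adjusted p 0.0601 to 0.116), with the exon columns (0.0623) and within mice 5 to 8 (0.493). The footprint call was lost without control mouse 3 (0.0804) or KO mouse 4 (0.0785), and plain library sizes raised its log2 fold change to 0.14.

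Slc17a6 encodes VGLUT2, which thalamic and other subcortical neurons use. In RNA the gene was at 58.6, 61.97, 62.3 and 59.03 CPM in control libraries against 46.6, 51.8, 57.6 and 49.2 CPM in KO libraries. Each KO library was below each control library, and the log2 fold change of -0.24 ± 0.073 (SE) was not called (adjusted p = 0.06198, edgeR). It was called with the exon columns (-0.27, adjusted p = 0.0275, edgeR), within mice 1 to 4 (-0.28, 0.00691), without KO mouse 5 (0.0136) or control mouse 8 (0.0343) and with DESeq2 (0.0488), and not within mice 5 to 8 (-0.18, 0.536). In footprints the gene was at 59.5, 53.4 and 48.9 CPM in control libraries against 49.6, 48.8 and 45.5 CPM in KO libraries (adjusted p = 0.157, edgeR, and 0.0494 without control mouse 9). Slc17a7 counts were 23.9 ± 1.29 times those of Slc17a6 in control RNA and 32.5 ± 2.25 times in KO RNA (SD, n = 4 each). Thalamus markers, 3 of 5 of them tested in RNA, were called in neither direction there and summed to 21.7 to 23.0 CPM in controls and 19.98 to 23.5 CPM in KO mice. In footprints they summed to 45.01 to 52.4 CPM in controls and 36.3 to 38.3 CPM in KO mice, with 1 of 3 tested lower (Prkcd), and their part in the Slc17a6 values was not tested. Slc17a8, the VGLUT3 gene, was not called in either assay.

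The ratio of the glutamate to the GABA loader was lower in KO RNA and not in KO footprints. Slc17a7 to Slc32a1 was 25.9 ± 0.672 in control and 20.1 ± 0.881 in KO RNA (SD, n = 4 each), or 77.6% of control. The size of this fall depended on the columns used. RNA log2 fold changes were 0.20 for Slc17a7 and 0.56 for Slc32a1 in the main run. With the exon columns they lay closer together, at 0.23 and 0.38. In footprints the ratio was 3.66 ± 0.058 in controls and 3.88 ± 0.136 in KO mice (SD, n = 3 each), or 106.2% of control. Each KO footprint ratio (3.73, 3.99 and 3.93) was above each control one (3.62, 3.72 and 3.62). These ratios compare the same genes between genotypes and say nothing of how many molecules of each were present, because counts were not divided by gene length.

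**Figure D2:**
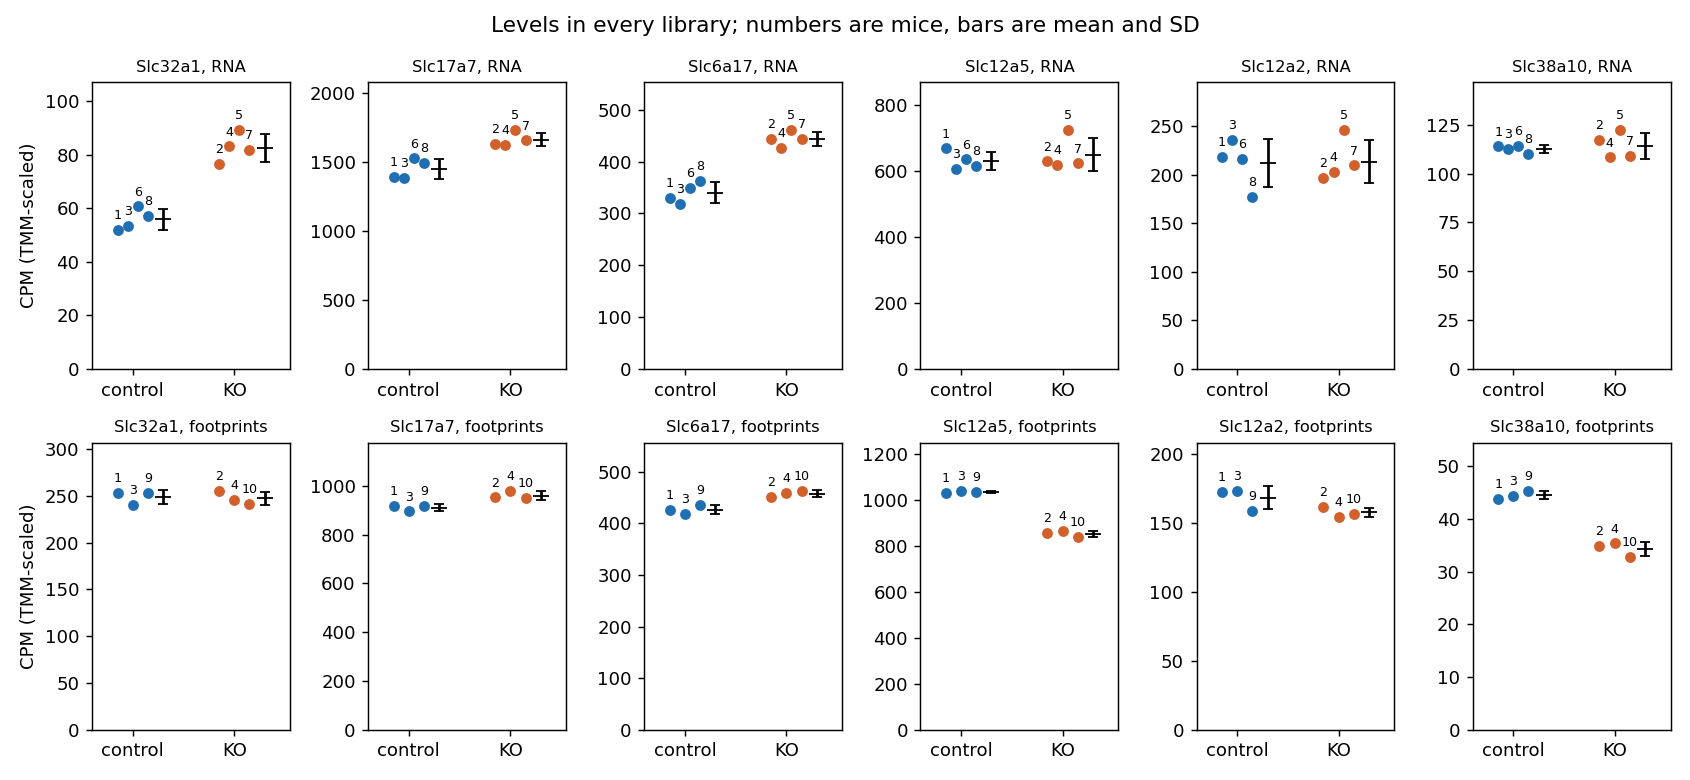
Each panel shows 1 gene in 1 assay, with CPM on the y axis and 1 point per library, numbered by mouse, and bars for each group's mean and SD (6 genes, RNA above and footprints below). Slc32a1 differs in RNA and overlaps in footprints, while Slc12a5 overlaps in RNA and differs in footprints.

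Among carriers that take GABA back up, Slc6a11 rose in RNA. It encodes GAT3, which clears GABA into astrocytes. Slc6a11 RNA was at 91.5, 79.4, 95.5 and 91.2 CPM in control libraries against 111, 103, 121 and 106 CPM in KO libraries, or 0.30 ± 0.069 as a log2 fold change (SE, edgeR's adjusted p = 0.0182) with no overlap. Footprints were measured at 217, 218 and 213 CPM in control libraries against 229, 226 and 212 CPM in KO libraries and overlapped (adjusted p = 0.508, edgeR). TE was not called with all libraries. Of the runs that left out 1 mouse, only that without control mouse 8 called it lower (-0.27, adjusted p = 0.0462, edgeR). Without control mouse 9 (-0.27, 0.112) or KO mouse 5 (-0.22, 0.0968), for example, it was not called. The RNA call was lost without KO mouse 2 (adjusted p = 0.0647), with the exon columns (log2 fold change 0.17, 0.0566) and within mice 5 to 8 (0.264). Of 6 astrocyte markers, 2 were lower in RNA and none higher, with sums of 1225 to 1544 CPM in controls and 1179 to 1317 CPM in KO mice. In footprints 2 of 6 were lower, with sums of 2485 to 2505 CPM in controls and 2290 to 2358 CPM in KO mice. Their part in this result and in those of the glial carriers Slc6a9 and Slc1a2 was not tested.

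Slc6a13 (GAT2) and Slc6a12 (the betaine and GABA carrier BGT1) fell in KO RNA. In the brain, Slc6a13 is known mainly from the meninges and blood vessels. Slc6a13 RNA was at 20.8, 19.4, 17.4 and 15.7 CPM in control libraries against 11.6, 12.5, 9.76 and 12.6 CPM in KO libraries, or -0.65 ± 0.12 as a log2 fold change (SE, edgeR's adjusted p = 0.004697). Footprint levels were 17.5, 18.3 and 17.2 CPM in control libraries against 13.3, 13.4 and 12.99 CPM in KO libraries, or -0.42 ± 0.15 as a log2 fold change (SE, edgeR's adjusted p = 0.0251). The genotypes overlapped in neither assay. The RNA call was lost within mice 5 to 8 (adjusted p = 0.177), with KO mice 2, 4 and 7 summed (0.0641) and with control mice 1 and 3 summed as well (0.133). The footprint call was lost on plain library sizes (0.0567), with DESeq2 (0.148) and without KO mouse 2 (0.0557), KO mouse 4 (0.0546), KO mouse 10 (0.0752) or control mouse 3 (0.0875).

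Slc6a12 was scarce. RNA was measured at 2.01, 1.97, 3.097 and 2.14 CPM in control libraries against 1.37, 1.31, 1.05 and 1.19 CPM in KO libraries, or -0.89 ± 0.24 as a log2 fold change (SE, edgeR's adjusted p = 0.0383) with no overlap. Footprints of 2.596, 1.87 and 1.95 CPM in control libraries against 0.949, 0.448 and 1.26 CPM in KO libraries were too few to be tested. The RNA call was lost without mouse 1, 2, 3, 4, 5, 6 or 7 (adjusted p 0.0551 to 0.119), with no filter (0.0507) and with the title prefix as a replicate block (0.0582). It was also lost within mice 1 to 4 (log2 fold change -0.57, 0.272) and within mice 5 to 8 (-1.20, 0.224). With KO mice 2, 4 and 7 summed (0.195), and with control mice 1 and 3 summed as well (0.2815), the call was lost too. DESeq2 gave Slc6a12 RNA no adjusted p.

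Slc6a13 and Slc6a12 are neighbouring protein-coding genes in RefSeq. Because both fell, the 250 bases before the most upstream RefSeq start of each (of 3 starts in Slc6a13 and 5 in Slc6a12) are shown for comparison, from GRCm38.p6. They lie on the plus strand, at chr6:121300038-121300287 for Slc6a13 and at chr6:121342324-121342573 for Slc6a12. Capitals mark a match to the motif TGACG, which stands here on the minus strand.
Slc6a13: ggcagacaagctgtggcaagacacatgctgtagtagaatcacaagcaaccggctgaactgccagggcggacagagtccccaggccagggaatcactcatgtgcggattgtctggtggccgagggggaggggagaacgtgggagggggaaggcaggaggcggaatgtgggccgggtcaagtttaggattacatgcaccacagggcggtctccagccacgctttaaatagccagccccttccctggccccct
Slc6a12: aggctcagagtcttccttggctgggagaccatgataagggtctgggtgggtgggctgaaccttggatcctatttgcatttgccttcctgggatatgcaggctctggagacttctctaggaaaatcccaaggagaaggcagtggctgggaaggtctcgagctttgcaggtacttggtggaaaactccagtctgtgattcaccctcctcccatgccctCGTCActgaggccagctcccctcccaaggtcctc
The Slc6a13 window holds 9 CpG dinucleotides and the Slc6a12 window 2, beside a median of 6 over all windows. Both strands were searched for TATAAA, which 12.4% of 32817 RefSeq windows hold, for TGACG, which 17.7% hold, and for CACGTG, which 6.02% hold. The motifs do not overlap in the windows shown. Slc6a13 held none, and Slc6a12 held TGACG alone.

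Markers of the meninges fell beside Slc6a13. In RNA 4 of 5 were lower (Dcn, Col1a1, Col1a2 and Igf2), and the 5 summed to 190.3 to 255 CPM in controls and 146 to 164 CPM in KO mice. In footprints 4 of 5 were lower, and the sums were 495 to 515 CPM in controls and 263 to 278 CPM in KO mice. None of the 5 was at 0. Choroid plexus markers summed to 11.98 to 284 CPM in control RNA and 7.66 to 121 CPM in KO RNA, with 1 of 4 tested lower. The upper ends came from single libraries, with Ttr at 263 CPM in control mouse 8 and 104 CPM in KO mouse 5. In footprints they summed to 16.8 to 19.8 CPM in controls and 7.35 to 13.4 CPM in KO mice, with 2 of 4 tested lower. Sums of 4 endothelial markers overlapped in RNA, at 65.1 to 123 CPM in controls and 69.5 to 119.5 CPM in KO mice, with a median log2 fold change of 0.17 and no call in either direction. In footprints they summed to 170.4 to 171.5 CPM in controls and 156 to 163 CPM in KO mice, with 1 of 4 lower. The part of these lists in the falls of Slc6a13 and Slc6a12 was not tested.

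**Figure D3:**
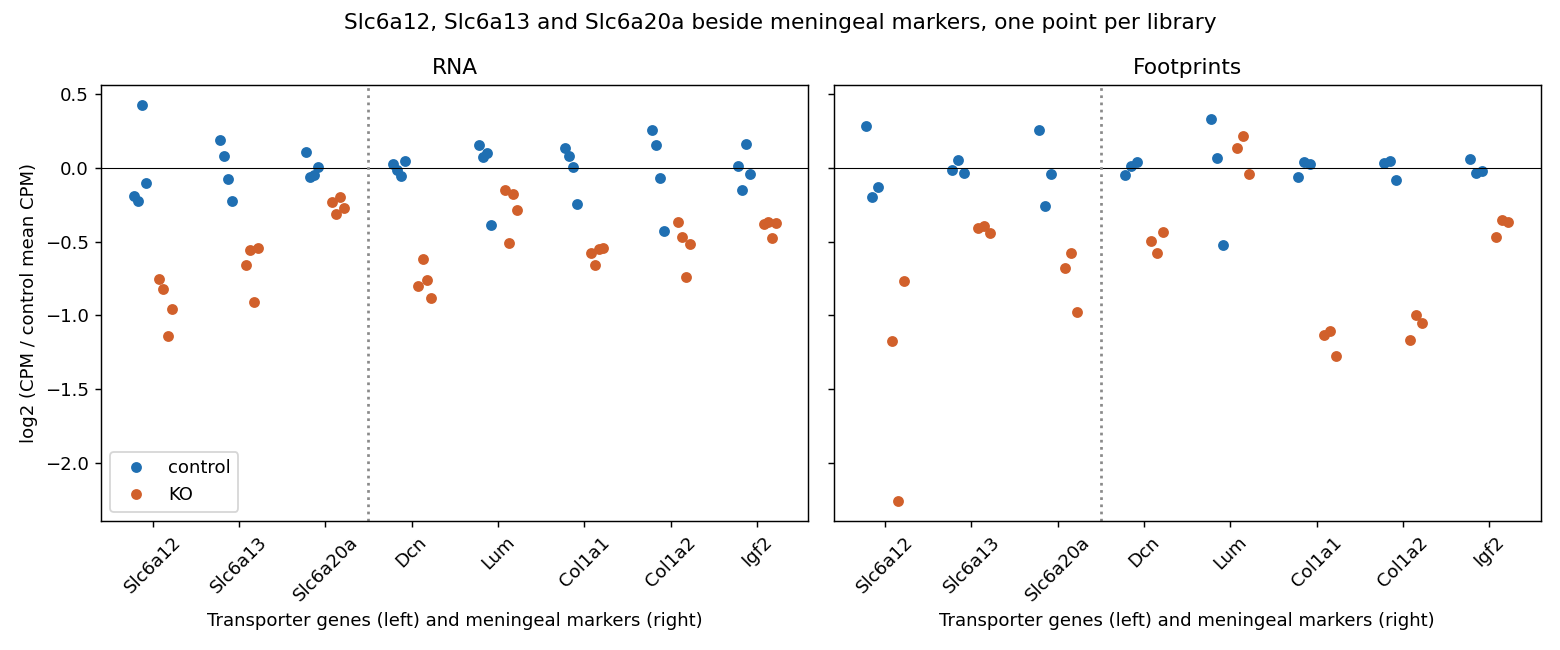
Each point is 1 library, with genes on the x axis (3 transporters left of the dotted line, 5 meninges markers right of it) and the log2 ratio of its CPM to the control mean on the y axis, in RNA and in footprints. KO points of the 3 transporters lie below every control point in both panels, as do those of 3 of the markers (Dcn, Col1a1 and Igf2), while Lum overlaps in both.

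The glycine carrier Slc6a9 fell in footprints. It encodes GlyT1, which clears glycine around synapses, mainly into glia. In footprints it stood at 65.4, 61.9 and 68.8 CPM in control libraries against 57.4, 51.1 and 59.1 CPM in KO libraries, or -0.22 ± 0.077 as a log2 fold change (SE, edgeR's adjusted p = 0.0207). Its RNA was at 41.3, 41.04, 43.8 and 38.4 CPM in control libraries against 42.8, 47.3, 40.5 and 44.96 CPM in KO libraries and was not called (adjusted p = 0.474, edgeR). TE was called lower without KO mouse 5 (-0.36, adjusted p = 0.0316, edgeR). The footprint call was lost on plain library sizes (adjusted p = 0.0988), with DESeq2 (0.130) and without control mouse 9 (0.101) or KO mouse 4 (0.172).

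Of the glutamate uptake carriers, Slc1a2 alone was called. Slc1a2 (GLT1) does most of the glutamate clearance of the forebrain, in astrocytes. In footprints the gene was at 3136, 3063 and 3082 CPM in control libraries against 3221, 3202 and 3226 CPM in KO libraries, all KO libraries above the controls, at 0.06 ± 0.019 as a log2 fold change (SE, adjusted p = 0.0163, edgeR). RNA levels were 2098, 2046, 2197 and 2073 CPM in control libraries against 2167, 2182, 2757 and 2195 CPM in KO libraries, where KO mouse 5 stood above the rest and the difference was not called (adjusted p = 0.268, edgeR) except within mice 1 to 4 (0.08, 0.0408). The footprint call was lost without control mouse 3 (adjusted p = 0.0727), control mouse 9 (0.0689) or KO mouse 10 (0.0681), and its log2 fold change was 0.12 on plain library sizes.

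Slc1a3 (GLAST), the other astrocyte carrier, had RNA at 463, 448, 486 and 533 CPM in control libraries against 491, 506, 608 and 489 CPM in KO libraries and footprints at 752, 749 and 774 CPM in control libraries against 762, 733 and 757 CPM in KO libraries. Slc1a1 (EAAC1), a neuronal carrier, had RNA at 138, 136, 139 and 140.3 CPM in control libraries against 144, 133, 142 and 137 CPM in KO libraries and footprints at 191, 178 and 183 CPM in control libraries against 184, 164 and 163 CPM in KO libraries. Neither gene was called in either assay, with adjusted p in footprints of 0.734 for Slc1a3 and 0.0684 for Slc1a1 (edgeR). Within mice 1 to 4, Slc1a3 RNA was called higher (0.14, adjusted p = 0.00724, edgeR). Slc1a1 footprints were called lower without KO mouse 2 (-0.17, adjusted p = 0.0105, edgeR), without control mouse 3 (-0.14, 0.0494) and in a fit that had the title prefix as a replicate block (-0.12, 0.0411). The neutral amino acid exchangers Slc1a4 and Slc1a5 were not called either, except Slc1a5 footprints without KO mouse 2 (-1.38, adjusted p = 0.0426, edgeR) or control mouse 9 (-1.20, 0.0319). Slc1a5 had the lowest footprint log2 fold change of the tested transporters (-0.93 ± 0.41, SE, adjusted p = 0.0899, edgeR), from 2.84 ± 1.06 CPM in control libraries against 1.51 ± 0.745 CPM in KO libraries (SD, n = 3 each).

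The chloride exporter fell in footprints without a called change in RNA. Slc12a5 (KCC2), which neurons use to keep chloride low, had footprints at 1029.6, 1039.5 and 1035 CPM in control libraries against 858, 863 and 838 CPM in KO libraries. The groups did not overlap, and the difference was -0.28 ± 0.024 as a log2 fold change (SE, edgeR's adjusted p = 1.44e-17), a level that fell by 17.6%. In RNA it stood at 668, 606, 635 and 615 CPM in control libraries against 629, 619, 724 and 623 CPM in KO libraries, where KO mouse 5 alone was high (log2 fold change 0.04 ± 0.061, SE, adjusted p = 0.753, edgeR). TE changed by -0.33 ± 0.074 (SE, adjusted p = 0.00836, edgeR). The footprint and TE calls held in every alternative run. Without KO mouse 5 the RNA log2 fold change was -0.01 and that of TE -0.27 (adjusted p = 0.00372, edgeR).

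The chloride importer was not called with all mice. Slc12a2 (NKCC1) footprints were at 173, 173 and 158 CPM in control libraries against 161, 155 and 157 CPM in KO libraries, or -0.09 ± 0.048 as a log2 fold change (SE, edgeR's adjusted p = 0.154), and were called lower without control mouse 9 (-0.14, 0.0378). In RNA the gene was at 219, 236, 217 and 177 CPM in control libraries against 196, 203, 246 and 209.8 CPM in KO libraries, and the genotypes overlapped (adjusted p = 0.958, edgeR). The RNA difference had opposite signs in the 2 sets of mice: within mice 1 to 4 the log2 fold change was -0.18 (adjusted p = 0.00609, edgeR) and within mice 5 to 8 it was 0.21 (adjusted p = 0.434, edgeR). The difference between these sets of mice was not tested.

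Counts of Slc12a5 relative to Slc12a2, within a library, overlapped in RNA and were lower in KO footprints. The RNA ratio was 3.01 ± 0.375 in controls and 3.04 ± 0.118 in KO mice (SD, n = 4 each). The footprint ratio was 5.967, 6.003 and 6.536 in controls and 5.32, 5.59 and 5.35 in KO mice, or 87.8% of the control mean, with no overlap. The outward carriers Slc12a4 and Slc12a7 were not called in any of the 3 tests.

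Regulators of these cotransporters were read from a list. WNK kinases sense chloride and act through SPAK and OSR1 to switch NKCC1 on and KCC2 off. Of 8 listed regulators, 1 was higher in RNA (Wnk2, log2 fold change 0.24 ± 0.050, SE, adjusted p = 0.0108, edgeR). In footprints, of 7 tested, Wnk1 (-0.46 ± 0.053, adjusted p = 8.25e-12) and Wnk2 (-0.30 ± 0.054, adjusted p = 3.58e-06) were lower by edgeR. Cab39, whose protein MO25 activates SPAK and OSR1, was higher in footprints (0.32 ± 0.049, SE, adjusted p = 7.54e-08, edgeR). In TE, Wnk1 (-0.51 ± 0.077, adjusted p = 0.000222) and Wnk2 (-0.56 ± 0.074, adjusted p = 6.34e-05) were lower and Cab39 (0.34 ± 0.079, adjusted p = 0.00997) was higher by edgeR.

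In the amino acid branch of the Slc6 family, Slc6a17 (NTT4), a carrier of neutral amino acids on synaptic vesicles, rose. RNA was measured at 329, 318, 349.7 and 362 CPM in control libraries against 443, 426, 461 and 443 CPM in KO libraries, or 0.38 ± 0.055 as a log2 fold change (SE, edgeR's adjusted p = 0.00129). Footprints were measured at 425, 419 and 435 CPM in control libraries against 451, 459 and 463 CPM in KO libraries, or 0.10 ± 0.031 as a log2 fold change (SE, edgeR's adjusted p = 0.00767). The genotypes overlapped in neither assay. TE was lower (-0.29 ± 0.070, SE, adjusted p = 0.0122, edgeR), but this call was lost with the exon columns (-0.10, adjusted p = 0.386), where the RNA log2 fold change was 0.22, and without KO mouse 2 (0.0798). The RNA call was lost within mice 5 to 8 (adjusted p = 0.0853) and with KO mice 2, 4 and 7 and control mice 1 and 3 summed (0.109). The footprint call was lost without control mouse 3 (0.0589), and on plain library sizes the footprint log2 fold change was 0.16.

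Slc6a20a, a carrier of proline and other imino acids, fell in footprints. They were at 16.8, 11.7 and 13.6 CPM in control libraries against 8.78, 9.41 and 7.12 CPM in KO libraries, or -0.71 ± 0.18 as a log2 fold change (SE, edgeR's adjusted p = 0.00111), called in every alternative run. Its RNA was at 12.5, 11.1, 11.2 and 11.6 CPM in control libraries against 9.86, 9.32, 10.1 and 9.59 CPM in KO libraries, lower in every KO library but not called (adjusted p = 0.135, edgeR). Its neighbour Slc6a20b is a close copy, so the split of reads between them is uncertain. Slc6a20b had 0 counts in RNA. The falls of meninges markers given above ran beside this one too, and their part in it was not tested. Slc6a6, the taurine carrier, and Slc6a8, the creatine carrier, were not called. Slc6a15, a neuronal carrier of neutral amino acids, was called higher in RNA only with DESeq2 (0.22, adjusted p = 0.0456) and within mice 1 to 4 (0.19, edgeR's adjusted p = 0.0257).

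Among SNAT carriers, 10 of 11 were tested and 9 had an RNA log2 fold change above 0, none of them called. Of all genes, 50.2% were below 0 in RNA and 7.41% were called. In footprints 8 of 10 SNAT carriers were below 0 and 1, Slc38a10, was called, where 49.1% of all genes were below 0 and 25.5% were called. Slc38a10 carries glutamine, glutamate and related amino acids. Its footprints were at 43.9, 44.4 and 45.4 CPM in control libraries against 34.9, 35.4 and 32.9 CPM in KO libraries, or -0.38 ± 0.093 as a log2 fold change (SE, edgeR's adjusted p = 0.000907), with RNA at 114, 112, 114 and 109.9 CPM in control libraries against 117, 108, 122 and 109 CPM in KO libraries. TE fell (-0.40 ± 0.095, SE, adjusted p = 0.0104, edgeR), a call lost without KO mouse 2 (0.0528).

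Slc38a1 and Slc38a2 missed the threshold in TE with all mice. Slc38a1 (SNAT1), which brings glutamine into neurons, had RNA at 105, 110.5, 114 and 113 CPM in control libraries against 123, 116, 126 and 119 CPM in KO libraries and footprints at 135, 125 and 139.8 CPM in control libraries against 120.3, 121 and 129 CPM in KO libraries. Slc38a2 (SNAT2) had RNA at 89.2, 74.1, 79.5 and 85.3 CPM in control libraries against 92.8, 101, 86.8 and 96.2 CPM in KO libraries and footprints at 199, 217 and 203 CPM in control libraries against 192, 191 and 203 CPM in KO libraries. TE log2 fold changes were -0.25 ± 0.081 for Slc38a1 and -0.29 ± 0.094 for Slc38a2 (SE), with adjusted p of 0.06299 and 0.06296 (edgeR). With the exon columns both were called, higher in RNA (Slc38a1 0.21, adjusted p = 0.0112; Slc38a2 0.19, adjusted p = 0.0262, edgeR) and lower in TE (Slc38a1 -0.31, adjusted p = 0.0112; Slc38a2 -0.26, adjusted p = 0.0321, edgeR). Slc38a2 TE was also called lower without control mouse 1 (adjusted p = 0.0408, edgeR), control mouse 8 (0.0319) or KO mouse 5 (0.0243) and with DESeq2 (0.0451), and Slc38a1 TE without control mouse 8 (0.0414). Within mice 1 to 4 both were called higher in RNA (Slc38a1 0.16, adjusted p = 0.0372, and Slc38a2 0.25, 0.0108, edgeR). Without KO mouse 5 Slc38a2 RNA was called higher (0.24, adjusted p = 0.0398, edgeR), and without control mouse 3 Slc38a1 footprints were called lower (-0.16, 0.0486). Slc38a3 (SNAT3), the astrocytes' glutamine exporter, had RNA at 51.1, 49.5, 51.98 and 46.7 CPM in control libraries against 53.98, 57.7, 52.4 and 54.9 CPM in KO libraries and footprints at 101, 94.98 and 109 CPM in control libraries against 91.1, 102 and 98.9 CPM in KO libraries, with overlap in footprints, none in RNA, and no call.

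Within control mice, transporters differed widely in footprints per RNA. Of 38, 28 were above the median gene and 10 below, with a median of 0.50 on the log2 scale. Slc32a1 was highest, at 2.29 (percentile 99.5 of all genes), followed by Slc38a2 (1.46) and Slc6a11 (1.405). Slc6a8 was lowest, at -3.08 (percentile 0.68), and Slc17a7 stood at -0.53. Mice with both assays gave Slc32a1 values of 2.43 and 2.32 in control mice 1 and 3 and 1.87 and 1.69 in KO mice 2 and 4. The same gene was thus lower in KO mice, yet stayed above the median gene. These values rest on counts of the same gene in both assays, so gene length cancels as far as the same region was counted, which the sources used here do not state.

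**Figure D4:**
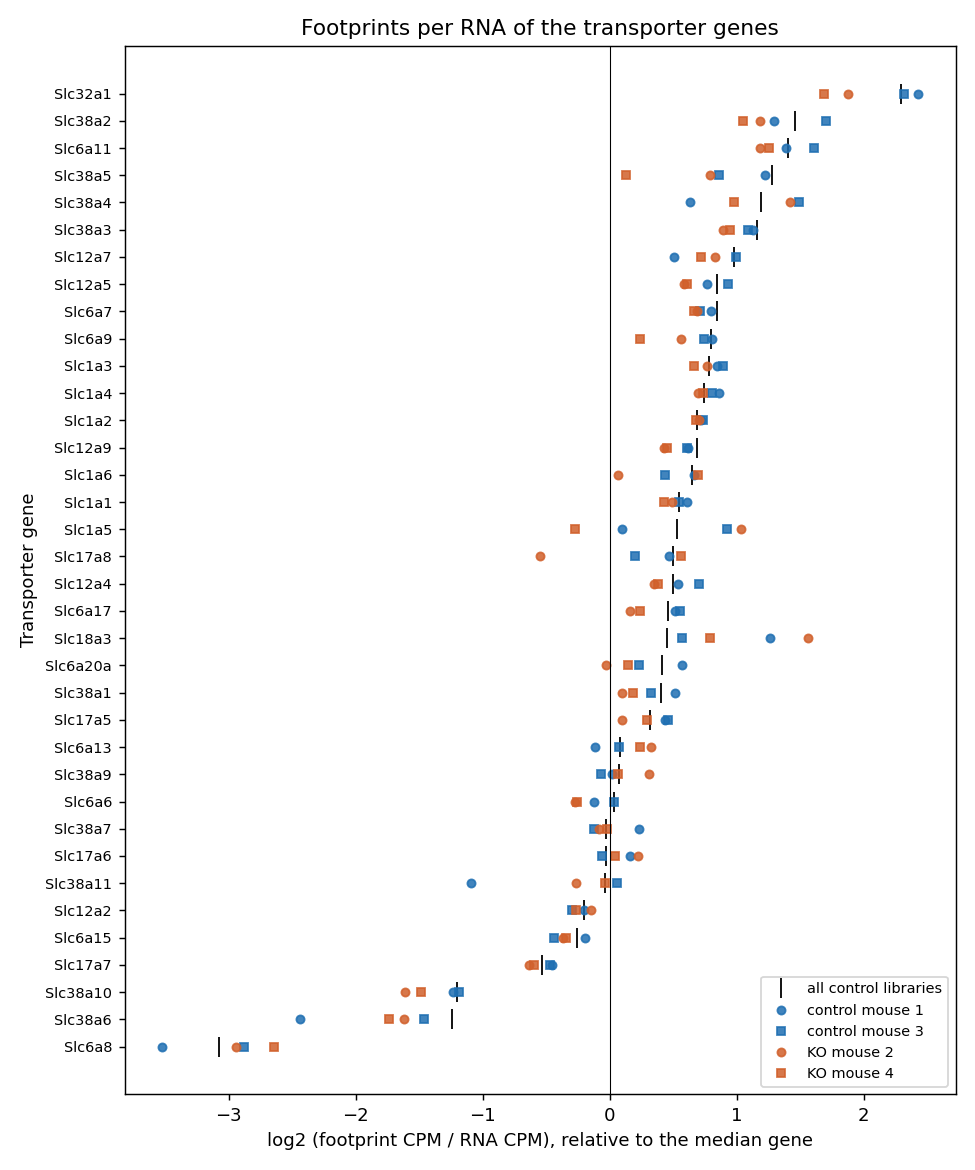
On the y axis 36 transporters are listed in the order of their control value, and the x axis gives log2 footprint CPM over RNA CPM relative to the median gene. Black ticks use all control libraries, and points are control mice 1 and 3 and KO mice 2 and 4, which had both assays. Slc32a1 is at the top and Slc6a8 at the bottom, and both KO points of Slc32a1 lie left of its control points.

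Of 10 listed enzymes that make and degrade the transmitters, Gls2, a glutaminase, was higher in RNA (log2 fold change 0.50 ± 0.094, SE, adjusted p = 0.00698, edgeR). In footprints Glul, the glutamine synthetase of astrocytes, was higher (0.15 ± 0.026, SE, adjusted p = 6.48e-07, edgeR). Lower in footprints were Gad2 (-0.18 ± 0.033, adjusted p = 3.79e-06), Glud1, glutamate dehydrogenase (-0.14 ± 0.032, adjusted p = 0.0005203), and Aldh5a1, which acts in GABA breakdown (-0.27 ± 0.061, adjusted p = 0.000282), all by edgeR. None of the 10 was called in TE. Of 5 genes of monoamine and acetylcholine synthesis, 4 tested in RNA, Ddc, the decarboxylase of dopamine and serotonin synthesis, was lower (-0.76 ± 0.11, SE, adjusted p = 0.00108, edgeR).

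The remaining 19 transporters were too scarce in RNA to be tested, with means of at most 1.18 CPM and at most 66 counts over all RNA libraries. They include the plasma membrane carriers of noradrenaline (Slc6a2), dopamine (Slc6a3) and serotonin (Slc6a4), which are made in cell bodies outside the cortex, and the vesicular monoamine carriers Slc18a1 and Slc18a2. The kidney cotransporters Slc12a1 and Slc12a3, the spinal glycine carrier Slc6a5 and the retinal carrier Slc1a7 were among them too. The others were Slc6a14, Slc6a18, Slc6a19, Slc6a20b, Slc17a1, Slc17a2, Slc17a3, Slc17a4, Slc17a9 and Slc38a8. Of these 19, 5 had 0 counts in all RNA libraries, where 3 counts, the limit that a count of 0 allows, correspond to 0.261 to 0.349 CPM. In footprints, Slc12a8 and Slc6a12 were also too scarce, and 8 transporters had 0 counts. With the exon columns Slc18a2 had enough counts and was lower (-1.36, adjusted p = 0.0159, edgeR).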

How the data were processed

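Both assays covered cortex of mice numbered in the labels, which gave genotype and mouse. The authors deposited a table of raw counts per gene, with no normalization, per the file headers. The submitters' processing notes name Bowtie2, STAR 2.5, featureCounts, Subread 1.4.6 and builds mm9 and mm10, without their roles. The region counted, the annotation and the strand setting are not given in the sources used here. Per the labels' protocols, ribosomal RNA was removed before the strand-specific RNA libraries were made, and footprints came from monosomes of lysates digested with nuclease. RNA columns without a suffix, which cover the same genes as the footprints, were used. Columns whose headers end in exon were an alternative.

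Tests were edgeR's quasi-likelihood F tests (edgeR 4.0.16, R 4.3.3), two-sided, with TMM factors, filterByExpr at a minimum count of 10 and Benjamini-Hochberg adjustment over all genes. TE was the interaction of genotype and assay, on genes kept in both assays, and DESeq2 1.42.0 was an alternative test. The scripts were tested on simulated data. Members and gene lists were chosen with earlier results of these data known. Values in every library are given for members called in at least 1 test and for the main carriers, except for 2 transporters that enter the counts but are not reported here by name or drawn. Mice 1 to 4 were in both assays, which is where the replicate block's pairing comes from. Deviations from the group mean correlated at -0.012 to 0.035 between the 2 libraries of a mouse. Mice 5 to 8 share 1 RNA title prefix, mice 1 and 2 another and mice 3 and 4 another, and the labels do not say what a prefix means.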

Additional observations from a re-analysis of the deposited data

Results flagged for a closer look

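Of 42 groups of 4 RNA libraries examined (named transporters, Fmr1 and library totals in each genotype), 4 held 1 library far from the other 3, by Dixon's criterion on the gap as a share of the group's range at the 95% level. Chance alone gives such a library in about 5% of groups. Slc12a5 RNA was at 724 CPM in KO mouse 5 and at 619 to 629 CPM in the other KO mice. Slc1a2 RNA was at 2757 CPM in KO mouse 5 and at 2167 to 2195 CPM in the other KO mice. Slc1a3 RNA was at 608 CPM in KO mouse 5 and at 489 to 506 CPM in the other KO mice. Slc6a12 RNA was at 3.10 CPM in control mouse 6 and at 1.97 to 2.14 CPM in the other control mice. KO mouse 5 was the outlying library in 3 of the 4, and its RNA library also stood apart from those of the other KO mice over all genes, as that of control mouse 8 did from control mice 1 and 3.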

How the results depend on the processing

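No called direction reversed in 274 recalculations of 19 gene-level calls, and 220 kept the call. DESeq2 gave Slc6a12 RNA no adjusted p, so that run is not among the 274. The count of transporters called in RNA (6 in the report) was 2 with KO mice 2, 4 and 7 summed, 1 with control mice 1 and 3 summed as well, 1 with mice 5 to 8 alone, 13 with mice 1 to 4 alone, and 3 to 8 when each mouse was left out in turn, while 79, 36, 88, 3273 and 356 to 1763 of all genes were called (1001 in the report). It was 3 without KO mouse 2. The count in footprints (9, beside 3102 genes) was 7 with DESeq2 (1723), 6 on plain library sizes (3447), and 6 to 10 with each mouse left out (2558 to 2855). In TE (4), the mouse number as a replicate block, which rests on mice 1 to 4 alone, gave 9 (1810 of all genes, 949 without it). Leaving out each mouse gave 2 to 7 (419 to 1289), with 2 without KO mouse 2 (419) and 7 without control mouse 8 (1263). The title prefix as a replicate block gave 5 in RNA (958 of all genes), without Slc6a12, and 10 in footprints (3199), with Slc1a1 added. Causes were not tested. Scarce genes limit what could be tested: 3 counts equal up to 0.712 CPM in footprints.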
